A study of Mus musculus with 14 samples.

Results

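The Tet1 stop-codon site was followed through every embryo in which it was sequenced. It is the stretch of the mouse Tet1 gene at which a cytosine base editor was aimed to turn a glutamine codon into a stop codon. All windows naming Tet1 were taken from the tables of the Tet-TKO, 4KO, 5KO and 6KO embryos. They numbered 52 of the 306 sequenced windows in the 7 tables of the series. Of these, 39 came from edited embryos and 13 from control embryos. Every embryo carried 1 such window of 26 bases, in which the deposited tables give the share of reads with A, C, G and T at each position.

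Zygotes of B6D2F1 females (C57BL/6J × DBA2) mated to Oct4-EGFP males on a C57BL/6J background were injected with mRNA of hA3A-eBE3-Y130F together with sgRNAs, and genomic DNA of the resulting embryos was amplified at each target and sequenced. Tet-TKO embryos received sgRNAs against Tet1, Tet2 and Tet3. The sgRNA against Dnmt1 was added in 4KO, those against Dnmt3a and Dnmt3b were added to the Tet sgRNAs in 5KO, and 6KO embryos received sgRNAs against all 3 Tet and all 3 Dnmt genes. The study's injection records give a higher concentration of editor mRNA for 4KO, 5KO and 6KO than for Tet-TKO, and give editor mRNA without sgRNA for control embryos. Tet-TKO embryos were of E7.5, E8.5, E9.5 and E10.5 (days of embryonic development), 4KO and 5KO embryos of E7.5 to E9.5, and 6KO embryos of E6.5 to E8.5, with 3 edited embryos and 1 control embryo at each stage. Each injection series had a table of its own, so the sgRNA set, the editor dose and the table cannot be told apart. How the sequenced embryos were chosen was not given in the sources used here.

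TET1 is one of the 3 mammalian dioxygenases that oxidize 5-methylcytosine, a first step in removing DNA methylation, and it is expressed in the early embryo and in pluripotent cells. The editor joins a Cas9 nickase to an engineered human APOBEC3A deaminase and a uracil glycosylase inhibitor. The sgRNA places the deaminase on a stretch of single-stranded DNA, where cytosine is converted to uracil and then copied as T. A cytosine other than the intended one in that stretch is called a bystander, and products other than T are known to arise when the uracil is removed before copying. An early stop codon ends the protein before the C-terminal catalytic domain of TET1 is complete.

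The protospacer lay at chr10:62839073-62839092 of GRCm38 (mm10) on the minus strand and its PAM at chr10:62839070-62839072, with 1 match and 0 mismatches in the genome. The whole window, chr10:62839070-62839095, was coding sequence, in exon 4 of 13 of the longer complete coding transcript and in exon 3 of 11 of the shorter. Positions are counted from 1 at the 5′ end of the 20-base protospacer. The first line gives the protospacer with its PAM in capitals, and the second the 26-base window with the cytosines at positions 2, 4 and 8 in capitals. The last 3 lines give the same window with T, in capitals, at the target alone, at the target and position 4, and at all of them, since the results turn on how often each of these bases was changed.
Tet1 protospacer and PAM: acacagtcaggagaaacgcaTGG
Tet1 window, reference: aaaaCaCagtCaggagaaacgcatgg
Tet1 window with C8T: aaaacacagtTaggagaaacgcatgg
Tet1 window with C4T and C8T: aaaacaTagtTaggagaaacgcatgg
Tet1 window with C2T, C4T and C8T: aaaaTaTagtTaggagaaacgcatgg

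C8T turned codon 1071 from CAG to TAG (Q1071*), at 52.5% of the length of the 2039-residue protein of the longer transcript, and the codon number was the same in the shorter, which encodes 2007 residues. The other products at this base were missense changes, Q1071K for C8A and Q1071E for C8G. C4T left histidine 1069 unchanged, while C2T gave H1069Y. The target follows a T, and both bystanders follow an A. The remaining cytosines of the window, C17 and C19, lie at the PAM end, where C17T would give R1074C and C19T would be silent.

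Before the edited embryos were compared, the 13 controls were examined. Shares of C8T ran from 0.0700% to 3.47% with a median of 0.252%. The highest values were in the E7.5 5KO control (3.16%) and the E9.5 5KO control (3.47%), each of which also carried 2% C4T, whereas the E8.5 5KO control had 0.553% C8T and C4T listed at 0. A pair of controls held the same values within rounding at Tet1, Tet2 and Tet3 although their names gave different tables and stages, namely the E9.5 Tet-TKO control and the E7.5 4KO control, and so did the E7.5 Tet-TKO control and the E6.5 6KO control. The 13 controls therefore stand for 11 distinct sets of values, and at least 1 name of each pair does not match its stage. No edited embryo shared its values with another. At the 23 positions other than 2, 4 and 8, the median share of non-reference bases was 0 in 36 of 39 edited embryos and in 10 of 13 controls, reached 1% in the E7.5 6KO and E8.5 Tet-TKO controls, and reached 2% in the E8.5 6KO control. Read depth was not given for these windows, so no counting interval is attached to any share.

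At the target base, T made up nearly all reads in all 39 edited embryos. How these were chosen was not given, so their shares are not a rate of editing among injected zygotes. The lowest C8T share was 94.8% (E6.5 6KO embryo 1), the median 98.7% and the highest 99.9% (E9.5 4KO embryo 1), and the lowest edited embryo was far above the highest control (3.47%). The share reached 95% in 38 embryos, 98% in 24 and 99% in 15. Embryos at or above 99% were unevenly spread, with 8 of 9 in 4KO, 5 of 12 in Tet-TKO, 2 of 9 in 5KO and 0 of 9 in 6KO.

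**Figure D1:**
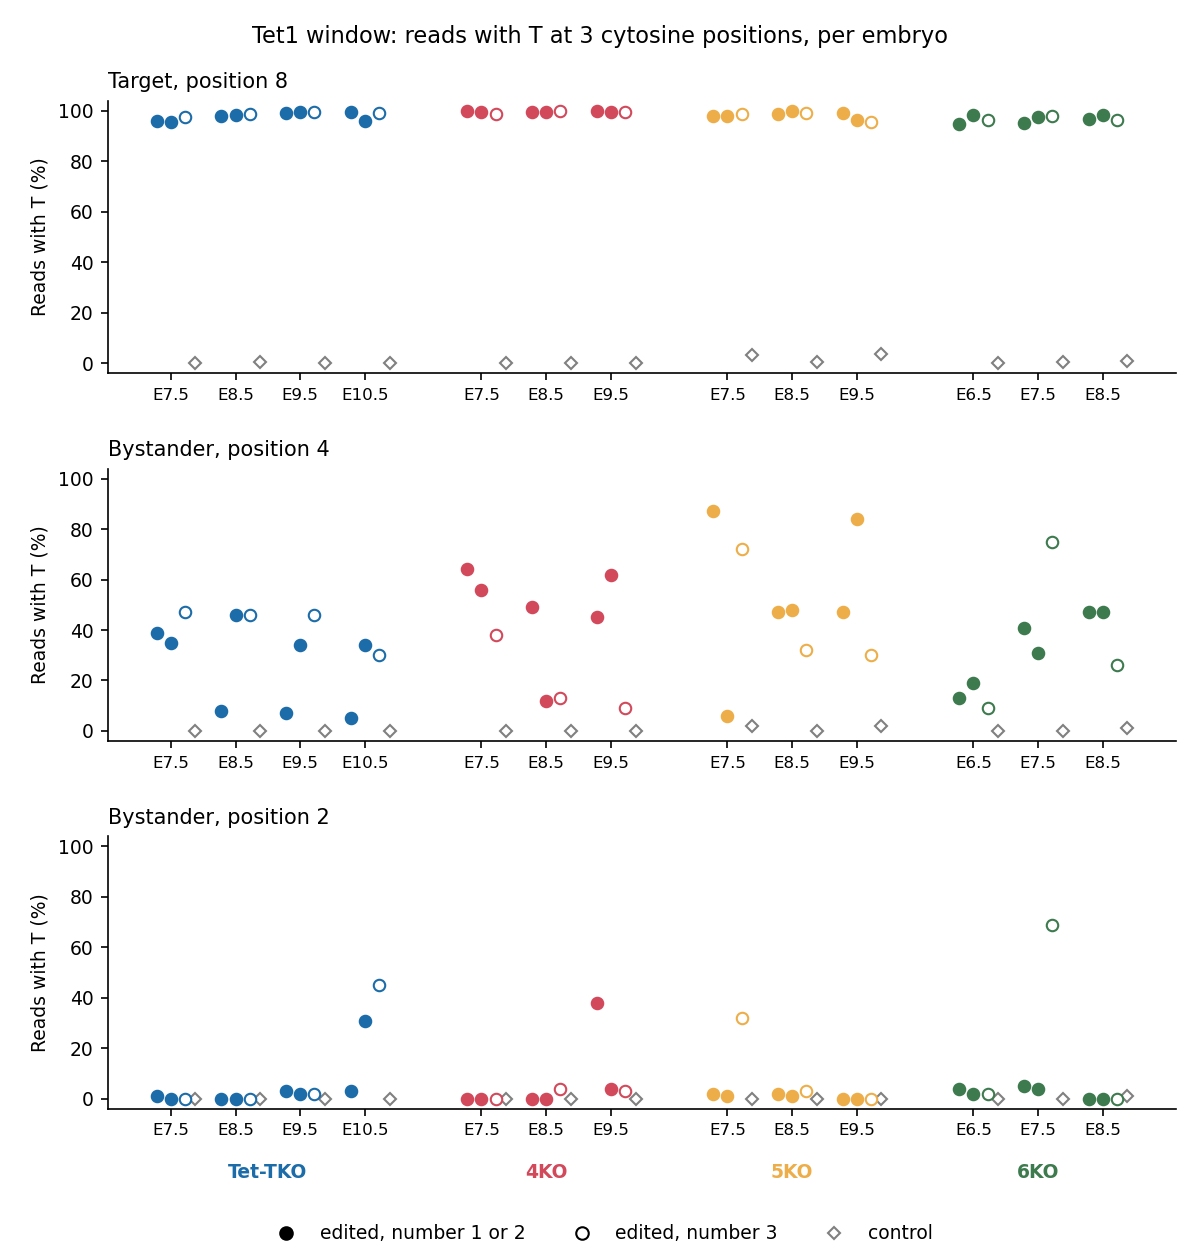
Percent of reads with T at positions 8, 4 and 2 of the Tet1 window (vertical axes) in each embryo, arranged by table and stage (horizontal axis). Filled points are embryos numbered 1 or 2, open points embryos numbered 3, and grey diamonds controls. Position 8 lies between 94.8% and 99.9% in edited embryos, position 4 spreads from 5% to 87%, and position 2 is below 6% in all but 5 embryos.

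Because so little of the target base was left, the share of reads without the stop codon spreads the embryos more clearly. It was lowest at 0.128% (E9.5 4KO embryo 1) and highest at 5.23% (E6.5 6KO embryo 1), with a median of 1.30%. In 4KO it ran from 0.128% to 1.10%, in 5KO from 0.221% to 4.23%, in Tet-TKO from 0.490% to 4.40% and in 6KO from 1.46% to 5.23%. The ranges of 4KO and 6KO did not overlap, whereas both of the others overlapped each of them.

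In Tet-TKO the share of reads without the stop differed by stage. It was 2.33%, 3.96% and 4.40% in the E7.5 embryos, 1.24%, 1.69% and 2.03% at E8.5, and 0.490%, 0.55% and 0.870% at E9.5. The embryos of these 3 stages did not overlap. At the 23 other positions the median share of non-reference bases was 2% in E7.5 embryo 1 (3.96%) and 1% in E7.5 embryo 2 (4.40%). It was 0 in E7.5 embryo 3 (2.33%) and in the E8.5 and E9.5 embryos. The part of such bases in the difference between stages was not tested. At E10.5 the values were 0.624%, 0.665% and 3.84%, so that 1 embryo returned to the E7.5 range. In 5KO the E8.5 embryos were low (0.221%, 0.759% and 1.04%), while the E9.5 embryos had 1.0%, 3.67% and 4.23% and the E7.5 embryos 1.30%, 1.91% and 2.11%. The 6KO embryos had 1.46%, 3.76% and 5.23% at E6.5, 2.13%, 2.58% and 4.94% at E7.5, and 1.59%, 3.10% and 3.50% at E8.5, with all stages overlapping. The embryos of different stages are different animals.

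The 26 embryos numbered 1 or 2 belong to the 8 labelled samples, 2 per group, each of which pools the embryos of 1 number over the stages. The embryos numbered 3 match no labelled sample and are given as values without a test. The labels do not say whether a sample stands for separate litters or injection days, so the tests measure the spread between these samples only. Sample means of C8T were 98.1% and 97.4% in Tet-TKO, 99.8% and 99.7% in 4KO, 98.6% and 98.1% in 5KO, and 95.6% and 98.1% in 6KO. Both 4KO samples lay above the other 6. The group means differed by up to 2.88 percentage points, from 99.7% ± 0.0503 (SD, n = 2) in 4KO to 96.8% ± 1.80 (SD, n = 2) in 6KO. Each p-value for a difference between groups comes from the between-group sum of squares of all groups, and not from the highest against the lowest. By this exact permutation test over the 8 samples, the difference between groups did not pass (p = 0.133, adjusted p = 0.267 over 4 measures, smallest possible p = 0.00952). Without the second 6KO sample it was 4.15 points (adjusted exact permutation p = 0.0381), but 6KO was then 1 sample, assumed to vary like the other groups. Without the first 6KO sample it was 1.97 points, with Tet-TKO lowest (adjusted exact permutation p = 0.229). As T over T plus C, which leaves out A and G, it was 1.61 points (adjusted exact permutation p = 0.229).

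From E7.5 to E8.5, the stages that all 4 tables hold, C8T of the numbered 1 and 2 embryos differed on average by +1.26 percentage points, with means of 97.4% and 98.7%. The difference was +2.33 points in Tet-TKO, +1.42 in 6KO, +1.38 in 5KO and -0.0903 in 4KO, where all embryos were above 99.6%. By the exact permutation test of stage within tables, with 2 embryos per stage and table, this difference did not pass after adjustment (two-sided p = 0.0170, adjusted p = 0.0648). As T over T plus C, the difference was +0.267 points (exact permutation p = 0.346, 0.461 after adjustment). The E7.5 Tet-TKO embryos of this comparison had medians of 2% and 1% non-reference bases at the other positions, whose part in it was not tested.

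The reads without T at the target divided into unedited C and the transversion products A and G, and the division differed between embryos. Unedited C was lowest at 0.0377%, had a median of 0.832% and was highest at 3.71%. The highest shares were in E10.5 Tet-TKO embryo 2 (3.71%), E8.5 6KO embryo 3 (3.41%) and E9.5 5KO embryo 3 (3.20%). The last also carried 3% of a non-reference base at 11 other positions, whose part in its C was not tested. In the 9 4KO embryos unedited C did not exceed 0.179%. All but 1 of the other 30 embryos were above that value, the exception being E8.5 5KO embryo 2 with 0.12%.

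C8A was found in 0.0455% to 3.80% of reads, at a median of 0.10%, and C8G in 0.0241% to 2.51%, at a median of 0.0700%. The controls carried A at this base in 0.118% to 1.54% of reads and G in 0.0188% to 0.308%. The highest control for both was the E8.5 6KO control, which had a median of 2% non-reference bases over the other positions. The next highest controls had 0.400% A and 0.201% G. A therefore exceeded every control in 3 of 39 edited embryos and all but the highest control in 9 of 39, and G did so in 9 of 39 and 10 of 39. Of the 3 embryos for A, E7.5 Tet-TKO embryo 1 (1.54%) equalled the highest control (1.5385%) within rounding. In most edited embryos, A and G at the target were thus not above the highest share found in a control. The edited median of A (0.10%) lay below the lowest control (0.118%).

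The highest shares of A were found in 6KO and the highest of G in Tet-TKO. In 6KO, E6.5 embryo 1 carried 3.80% A with 0.267% G, and E7.5 embryo 1 carried 2.69% A with 0.773% G. E6.5 6KO embryo 3 carried nearly equal shares, 1.39% A and 1.32% G. The E7.5 Tet-TKO embryos were different in kind, with G ahead of A in embryo 2 (2.51% G, 0.71% A) and embryo 3 (1.42% G, 0.10% A), and A ahead of G in embryo 1 (1.54% A, 0.880% G). At E8.5 the Tet-TKO embryos had 0.530%, 0.390% and 0.480% G, still above the highest control, and from E9.5 on at most 0.110%. The median share of non-reference bases at the other 23 positions was 2% in E7.5 Tet-TKO embryo 1 and 1% in embryo 2, and the part of that in their A and G was not tested. In 5KO the 3 E9.5 embryos carried 0.452%, 0.950% and 0.961% A, above all 6 embryos of E7.5 and E8.5, which had at most 0.10%, while G was at most 0.0834% at E9.5. Their E9.5 control had 0.131% A.

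Over all 39 edited embryos A exceeded G in 26, and in all 13 controls. A was ahead in 9 of 9 6KO embryos, 7 of 12 Tet-TKO embryos, 6 of 9 5KO embryos and 4 of 9 4KO embryos. A and G together reached 1% in 9 embryos. Their part of the reads without the stop ran from 2.47% to 95.2% with a median of 35.5%. It was over 50% in all 9 4KO embryos, where little unedited C was left. In the labelled 4KO samples A and G averaged 0.162% of all reads, against 0.157%, 0.160% and 0.139% in the 4KO controls. The part was also over 50% in the 3 E7.5 embryos of Tet-TKO, in 3 of 9 6KO embryos and in 1 of 9 5KO embryos. The highest part was in E7.5 4KO embryo 3, in which 0.971% of reads carried G and 0.0522% unedited C, and this embryo had a median of 1% non-reference bases at the other positions.

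**Figure D2:**
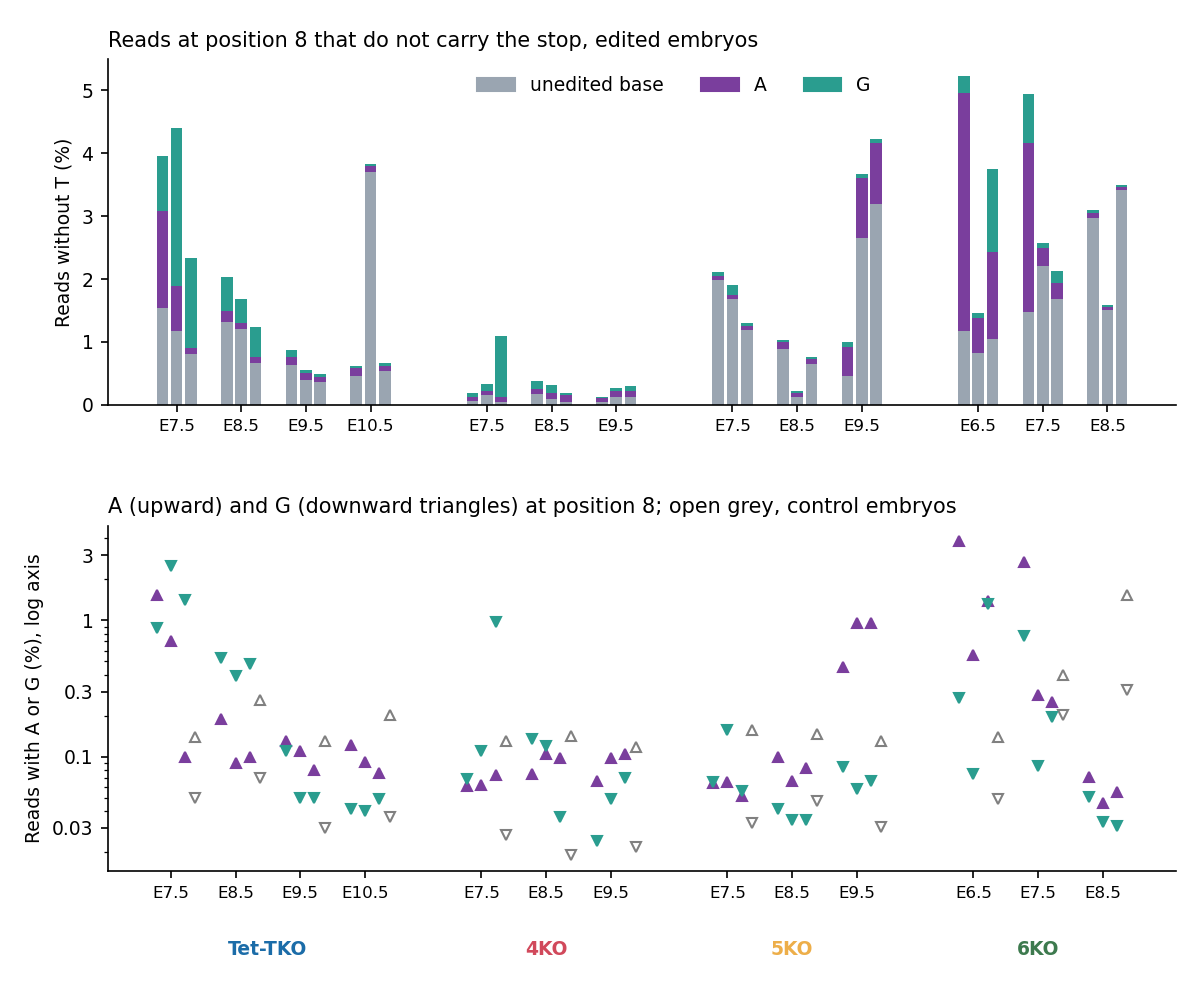
Reads without T at position 8 in the 39 edited embryos. The upper panel stacks unedited C, A and G as percent of reads for each embryo by table and stage, and the lower panel gives A and G on a log axis with the controls. The tallest bar is 5.23% (E6.5 6KO embryo 1) and is mostly A (3.80%), whereas G leads in E7.5 Tet-TKO embryo 2 (2.51%).

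The sum of A and G averaged 0.942% ± 0.0792 (SD, n = 2) in Tet-TKO, 0.162% ± 0.0277 in 4KO, 0.356% ± 0.123 in 5KO and 1.45% ± 1.55 in 6KO. The 2 samples of 6KO lay far apart at 2.55% and 0.358%. The largest difference between groups was 1.29 percentage points, and the exact permutation test over all groups did not pass (p = 0.324, adjusted p = 0.432). This difference rested on which 6KO sample was kept. With the first alone it was 2.39 points (adjusted exact permutation p = 0.0381), the lone sample being assumed to vary like the other groups, and with the second alone it was 0.780 points with Tet-TKO highest (adjusted exact permutation p = 0.190). From E7.5 to E8.5 the mean of A and G went from 1.26% to 0.260%, a difference of -1.01 points that did not pass after adjustment (exact permutation p = 0.0324, 0.0648 after adjustment). Without the first 6KO sample it was -0.624 points (adjusted exact permutation p = 0.194). The difference was -2.22 points in Tet-TKO and -1.81 in 6KO, against -0.0545 in 5KO and +0.0661 in 4KO.

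C4, the bystander whose conversion is silent, took the widest range of shares in the window. C4T was lowest at 5% (E10.5 Tet-TKO embryo 1), had a median of 39% and was highest at 87% (E7.5 5KO embryo 1). It was above every control, the highest of which had 2%, in all 39 edited embryos. In 9 embryos it was under 15%, in 11 it lay from 15% to under 40%, in 12 from 40% to 50%, and in 7 above 50%. Of the 12, 11 lay between 44% and 50%. Embryos of 1 stage and table could lie far apart. At E7.5 in 5KO, C4T was 87%, 6% and 72%, although C8T was 97.9%, 98.1% and 98.7%. At E8.5 in Tet-TKO it was 8%, 46% and 46%, with C8T of 97.98%, 98.32% and 98.76%.

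Sample means of C4T were 14.8% and 37.3% in Tet-TKO, 52.7% and 43.3% in 4KO, 60.3% and 46.0% in 5KO, and 33.7% and 32.3% in 6KO. All 4 samples of 4KO and 5KO lay above the 4 samples of Tet-TKO and 6KO, but the groups pool different stages. The groups differed by up to 27.2 percentage points, from 53.2% ± 10.1 (SD, n = 2) in 5KO to 26% ± 15.9 (SD, n = 2) in Tet-TKO, a spread that did not pass the exact permutation test (p = 0.114, 0.267 after adjustment). Between E7.5 and E8.5 the mean difference was -6.88 points (exact permutation p = 0.596, also after adjustment), made up of -29.5 in 4KO, -10.0 in Tet-TKO, +1 in 5KO and +11 in 6KO.

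C2, whose conversion gives H1069Y, was changed little in most embryos. C2T was listed at 0 in 16 of 39 embryos and was under 6% in 34. No embryo lay between 6% and 30%. The remaining 5 carried 31% (E10.5 Tet-TKO embryo 2), 45% (E10.5 Tet-TKO embryo 3), 38% (E9.5 4KO embryo 1), 32% (E7.5 5KO embryo 3) and 69% (E7.5 6KO embryo 3). At least 1 such embryo was found in each of the 4 tables, and in controls C2T was at most 1%. Group means of the labelled samples ran from 1% in 5KO to 7% in 4KO, a difference of 6 points that did not pass (exact permutation p = 0.619, also after adjustment). The 4KO mean came from samples of 12.7% and 1.33%, the former holding the embryo with 38%. The difference was 11.7 points without the second 4KO sample, and 4 points with Tet-TKO highest without the first. With medians over the embryos of a sample it was 3 points, with 6KO highest and 4KO lowest. From E7.5 to E8.5 C2T differed by -1.25 points (exact permutation p = 0.167, 0.222 after adjustment).

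The order of the 3 cytosines was the same in every labelled sample. C8T exceeded C4T by 58.1 ± 13.5 percentage points (SD, n = 8 samples), and in 8 of 8 samples. C4T exceeded C2T by 36.2 ± 13.7 points (SD, n = 8), likewise in 8 of 8. Both differences passed the exact permutation test of signs (two-sided, adjusted p = 0.0078125, the smallest possible with 8 samples). Among single embryos, C2T exceeded C4T in 1 of 39, E10.5 Tet-TKO embryo 3 (45% against 30%).

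The tables give shares at each base and not whole reads, so how often changes stood on the same read can only be bounded, on the assumption that every read covers both positions. At least 58.3% to 99.7% of the reads with C4T must also have carried C8T (median of the lower limits 96.7%), since so few reads were without C8T. For both bystanders together the limit was informative in E7.5 6KO embryo 3, where 69% C2T and 75% C4T require that at least 44% of reads carried both, and in E7.5 5KO embryo 3, where 32% and 72% require at least 4%. In the other 37 embryos separate reads could hold the C2T and the C4T. In E9.5 4KO embryo 1, 38% C2T and 45% C4T add to 83%, and in E10.5 Tet-TKO embryo 3, 45% and 30% add to 75%.

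**Figure D3:**
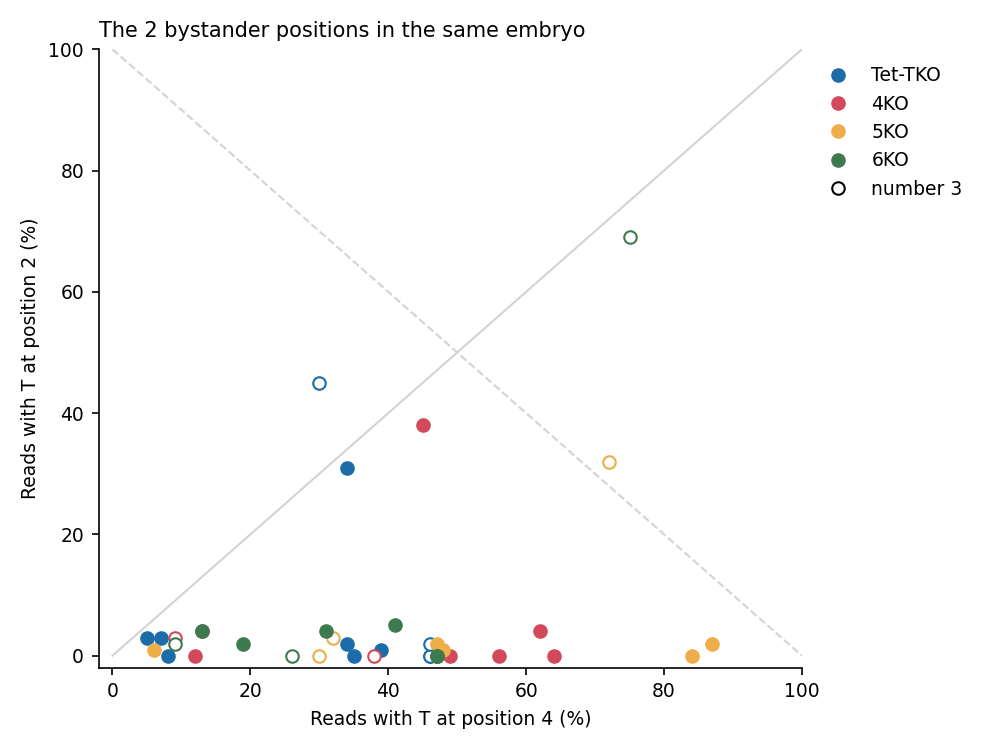
Percent of reads with T at position 4 (horizontal) against position 2 (vertical) in each edited embryo, by table. Open points are embryos numbered 3. On the solid line both shares are equal, and beyond the dashed line they add to more than 100%, which requires reads with both changes. Of 39 embryos, 34 lie below 6% at position 2, 1 lies above the solid line and 2 lie beyond the dashed line.

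Within a table, no relation between the shares at the 3 cytosines passed among the labelled embryos. With table means subtracted, C8T and C4T of the 26 labelled embryos had r = -0.248 and rho = -0.262 (permutation p = 0.221 and 0.219, adjusted p = 0.552 and 0.414 over 5 relations), and r = -0.384 without the 2 embryos farthest in C8T. By table, r was -0.506 in Tet-TKO, 0.209 in 4KO, -0.453 in 5KO and 0.213 in 6KO. C2T fell into separate clusters, with 2 labelled embryos over 30%, too few for a relation of their own. Among the 24 others, which leave out the embryos with high C2T, C2T had r = -0.146 with C4T (permutation p = 0.456, adjusted p = 0.635) and r = -0.0325 with C8T (permutation p = 0.891, adjusted p = 0.891).

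Outside positions 2, 4 and 8, no non-reference base exceeded 3% in an edited embryo or 2% in a control. C17T was listed at 0 in all 39 edited embryos and C19T was at most 1%. C19G and G22A were each listed at 1% or more in 6 edited embryos and at 0 in every control. E8.5 4KO embryo 3 and E9.5 4KO embryos 1, 2 and 3 carried 1% each of C19G, A20G and G22A, the smallest share above 0 given there. Shares of 3% or more for a single base outside positions 2, 4 and 8 were found in 1 edited embryo. E9.5 5KO embryo 3 carried 3% of a non-reference base at 11 positions from 10 to 23 (G10T, G11T, A12T, G13A, A14G, A15G, C17G, G18A, C19A, T21C and G23C), all at 0 in the control of its stage. At 9 of these 11 positions the base was that of the reference 4 positions upstream, and at 10 of 11 when C8 is read as T. No other displacement from 6 upstream to 6 downstream gave more than 5. The remaining exception was position 10, and positions 6 and 7 were listed at 100% of the reference base. Positions 5 and 9 would hold their reference base under this displacement too, so their 100% does not bear on it. At position 8 this embryo carried 3.20% C, which is also the reference base 4 positions upstream. The part of displaced bases in that share was not tested. Insertions and deletions have no line in the tables, and their part in these shares was not tested.

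**Figure D4:**
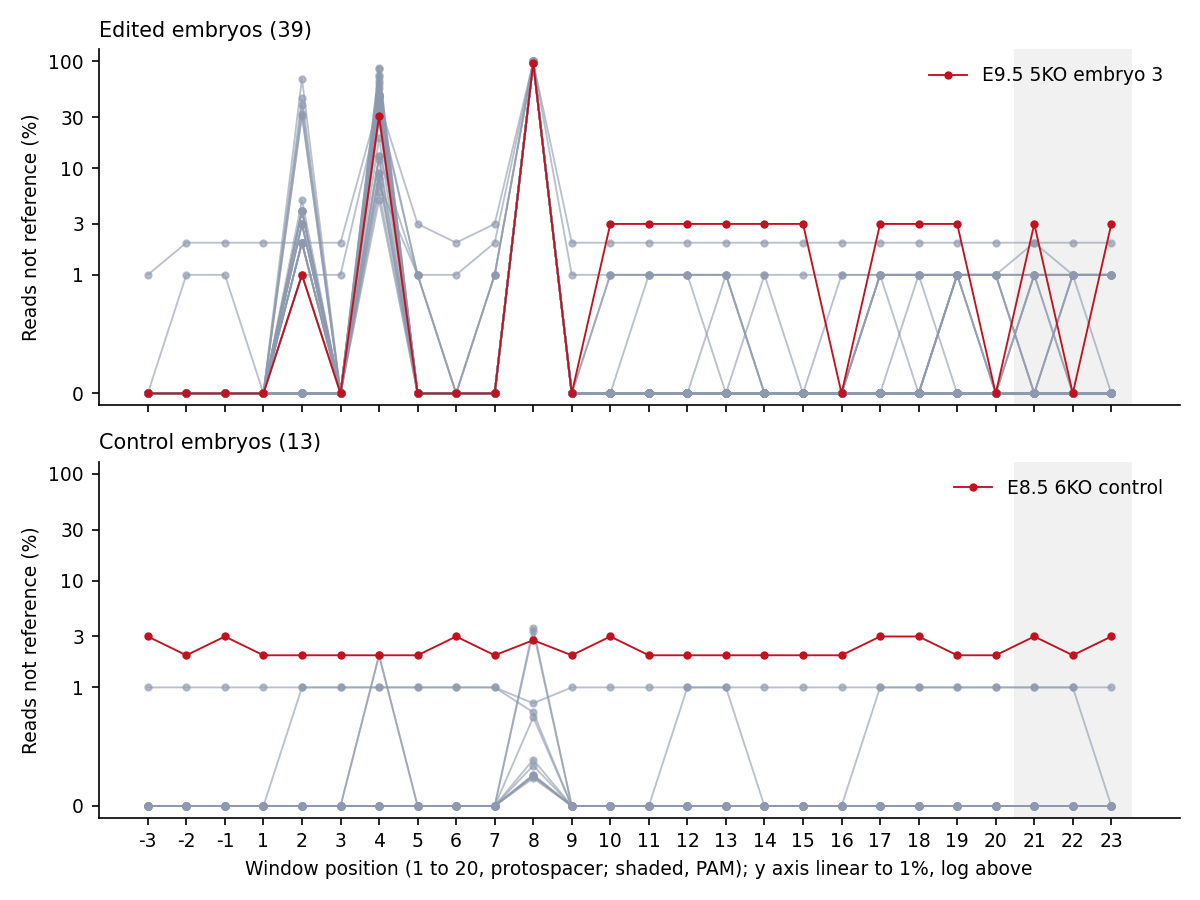
Percent of reads with a base other than the reference at each of the 26 window positions (horizontal axis, counted from the 5′ end of the protospacer) in 39 edited and 13 control embryos. The vertical axis is linear to 1% and logarithmic above. E9.5 5KO embryo 3 and the E8.5 6KO control are drawn in red, and the former has 3% at 11 positions.

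The same embryos carried target sites in Tet2 and Tet3, the other members of the dioxygenase family, and Tet1 had the lower share in most embryos. Over the 39 embryos C8T of Tet1 was lower than T at the target base of Tet2 in 29, lower than that of Tet3 in 25 and lower than both in 19. In 4KO it was lower than Tet2 in 9 of 9 embryos. Over the 8 labelled samples Tet1 minus Tet2 was -0.508 ± 0.688 percentage points (SD, n = 8; means 98.2% and 98.7%), with Tet1 lower in 7 of 8, and did not pass (exact permutation of signs, p = 0.102, also after adjustment). Tet1 minus Tet3 was -0.500 ± 0.733 points (SD, n = 8), with Tet1 lower in 6 of 8 (exact permutation p = 0.0625, 0.102 after adjustment). The direction depended on how the share was taken. As T over T plus C, which leaves out A and G, Tet1 minus Tet2 was +0.153 points and Tet1 minus Tet3 +0.0109 points (adjusted p = 0.891 for each, exact permutation test). Another choice was to subtract the share of T in the control of the same table and stage. The E7.5 and E9.5 5KO controls, with 3.16% and 3.47% T at the Tet1 target, and the pairs of controls with the same values were among those subtracted. With that subtraction the differences were -0.664 and -0.635 points, with adjusted p = 0.03125 for each by the exact permutation test. Without the first 5KO sample they were -0.663 and -0.586 points, with the same adjusted p.

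**Figure D5:**
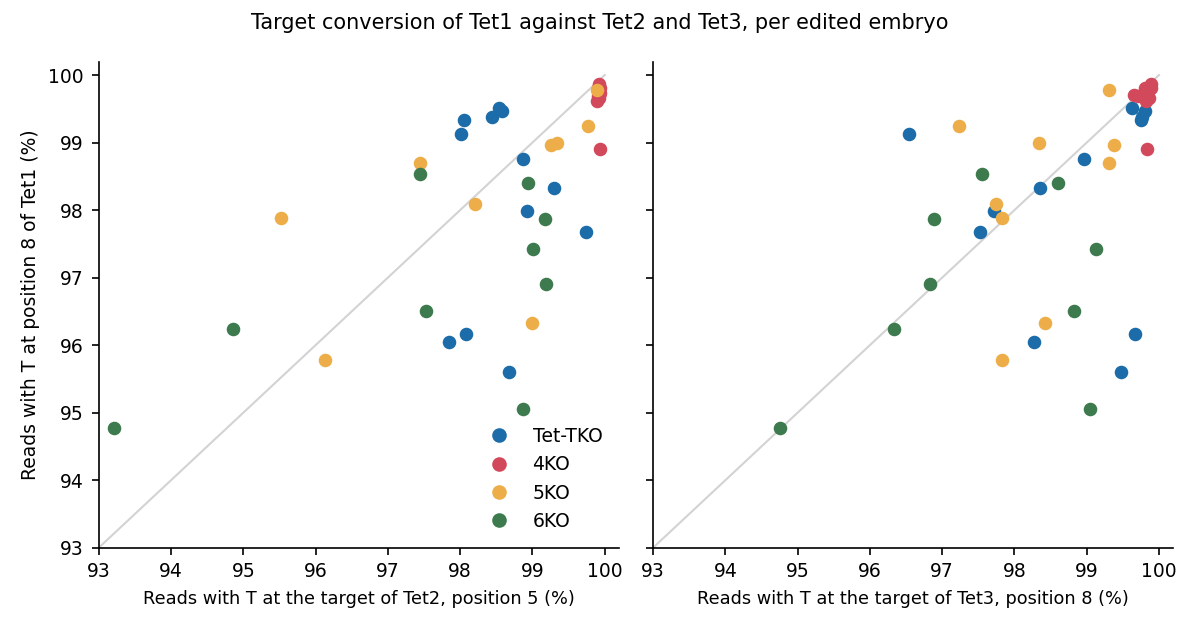
Percent of reads with T at the Tet1 target (vertical) against T at the target base of Tet2 (left) and of Tet3 (right, both horizontal) in each of the 39 edited embryos, by table. The line marks equal shares, and Tet1 is the lower of the pair in 29 embryos against Tet2 and in 25 against Tet3.

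Ranked by rho, Tet3 and Tet2 had the shares most like Tet1 C8T from embryo to embryo among the other edited genes, with rho = 0.294 and 0.274 over 39 embryos of 4 tables after table means were subtracted. For Dnmt3a, Dnmt1 and Dnmt3b rho was 0.0918, 0.0671 and -0.0134, each over 18 embryos of 2 tables. By Pearson's r the order was another, with 0.414 for Tet2, 0.389 for Dnmt1, 0.212 for Tet3, -0.0716 for Dnmt3a and -0.127 for Dnmt3b. All of these genes were amplified from the same DNA of an embryo. With table means subtracted, the 26 labelled embryos gave r = 0.363 and rho = 0.289 between Tet1 and Tet2 (permutation p = 0.129 and 0.204, adjusted p = 0.552 and 0.414), falling to r = 0.167 without the 2 embryos farthest in C8T, both of 6KO. For Tet1 and Tet3 they gave r = 0.178 and rho = 0.236 (permutation p = 0.508 and 0.335, adjusted p = 0.650 and 0.418), falling to 0.0327. Within tables r with Tet2 was 0.245 in Tet-TKO, 0.689 in 4KO, 0.365 in 5KO and 0.509 in 6KO, and with Tet3 it was -0.168, 0.527, 0.533 and 0.414. Without subtraction of table means r was 0.560 with Tet2 and 0.472 with Tet3 (adjusted permutation p = 0.0127 and 0.0359), so that the relation passed only with differences between the 4 tables left in. These permutations exchanged the embryos freely over the tables, so a relation between tables was not tested.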

How the data were processed

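Genomic DNA of edited mouse embryos was amplified at each sgRNA target, ligated to barcodes, pooled and sequenced in paired-end mode on a HiSeq X instrument by the authors. The deposited values are fractions of reads with each base at each window position, given to 2 decimals, and to 4 to 6 decimals at the target base. Aligner, filters and depth were not given in the sources used here, and mm10 is named in the submitters' processing notes. Molecular identifiers are not mentioned, so amplification error is included in every share. Fractions were multiplied by 100, and the 4 shares at a position summed to 99% to 101%.

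Windows naming Tet1 were read from 4 tables, and those of Dnmt1-KO, Dnmt3ab-DKO and Dnmt-TKO, which hold no Tet1 window, were not used. The members, positions and tests were chosen with earlier results of these data known. Positions 2, 4 and 8 were always described, and any other position was named where an edited embryo reached 3%. Embryos numbered 1 and 2 were assigned to the labelled samples, and their mean per sample was the unit of the group tests. The 13 embryos numbered 3 and the 13 controls match no labelled sample, and were given as values. The protospacer was located in GRCm38, with exons from GENCODE M21.

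Tests were exact permutation tests. Samples were exchanged across groups (2520 placements), with the between-group sum of squares of all groups as the statistic. Embryos were exchanged across E7.5 and E8.5 within tables (1296 placements), and signs of paired differences were changed (256 changes), both two-sided. Correlations of table-centred shares used 100000 permutations. Benjamini-Hochberg adjustment covered the 4 measures of a family, 2 paired differences at a time, or 5 relations, with a threshold of 0.05. The tests were checked on simulated data. Alternatives were the replicate block, embryos as units, all edited embryos, medians, E7.5 and E8.5 alone, the logit scale, T over T plus C, control subtraction, no subtraction of table means and omission of each sample. Division by the sum of the 4 shares and omission of the 5KO embryos of E7.5 and E9.5 or of embryos with C2T over 30% were added after the data were seen. Python 3.11.15, NumPy 2.4.6, SciPy 1.17.1 and matplotlib 3.10.9 were used.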

Additional observations from a re-analysis of the deposited data

Results flagged for a closer look

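Within groups of 4 to 10 embryos, 10 of 23 sets of values had an embryo whose gap to its neighbours exceeded the 95% limit of Dixon's test. Chance gives about 1 in 20 for independent sets of normally distributed values. These sets share embryos and several are skewed, so the count is a description and not a test against chance. The 12 edited Tet-TKO embryos were too many for this test, so the 8 labelled ones were used. For C2T the embryos that stood apart were E10.5 Tet-TKO embryo 2 (31.0%), E9.5 4KO embryo 1 (38.0%), E7.5 5KO embryo 3 (32.0%) and E7.5 6KO embryo 3 (69.0%). At the target, E7.5 4KO embryo 3 stood below the other 4KO embryos in C8T (98.9%) and above them in C8G (0.971%). E7.5 Tet-TKO embryo 1 stood apart in C8A (1.54%), E7.5 Tet-TKO embryo 2 in C8G (2.51%) and E7.5 5KO embryo 2 in C8G (0.156%). Of the controls, the E8.5 Tet-TKO control had a C8T share of 0.460% against 0.0700% to 0.102% in the other 3 of its table.

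Between E7.5 and E8.5, embryos of the same number, which are different animals, differed in opposite directions in different tables. These differences between tables were not tested. C4T differed by +11 percentage points in 6KO and by -29.5 in 4KO. The sum of A and G at the target differed by +0.0661 points in 4KO, by -2.22 in Tet-TKO and by -1.81 in 6KO.

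Outside the positions compared, E9.5 5KO embryo 3 carried 3.0% of a non-reference base at 11 positions that were at 0 in the control of its stage.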

How the results depend on the processing

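Over 17 results, 230 values were recomputed under alternative settings. Of these, 207 kept their side of the threshold (or, where untested, moved by less than the spread), 10 passed the threshold where the reported value did not, 2 moved by more than the spread, and 11 tested values changed sign, none of them past the threshold before or after. Of the 207, tested stage and paired differences and correlations also kept their direction. For differences between groups direction was not compared, and the highest and lowest group could change. With only E7.5 and E8.5 embryos, Tet-TKO had the highest A and G in place of 6KO. With the 26 labelled embryos as units, the C8T difference of 2.88 points between groups passed (permutation p = 0.00945, adjusted p = 0.0378), although embryos of 1 sample number are not separate samples. Leaving out each sample in turn, the C8T difference ran from 1.97 to 4.15 points and that of A and G from 0.780 to 2.39, and both passed only without the second 6KO sample, which leaves 6KO as 1 sample assumed to vary like the others. The C4T difference from E7.5 to E8.5 ran from -17.1 to 3.38 points, positive only without the first 5KO sample. Tet1 minus Tet2 ran from -0.663 to -0.366 and Tet1 minus Tet3 from -0.586 to -0.294, both passing only without the first 5KO sample. As T over T plus C they turned to 0.153 and 0.0109, as A and G are then left out. With control shares subtracted these were -0.664 and -0.635 (adjusted p = 0.03125 for each, exact permutation test), but the subtracted E7.5 and E9.5 5KO controls had over 3% T. Without the 5KO embryos of E7.5 and E9.5 Tet1 minus Tet2 was -0.511 (adjusted p = 0.0156, exact permutation test). Without subtraction of table means r with Tet2 was 0.560 and with Tet3 0.472, that of C4T with C2T was -0.0228 and that of C8T with C4T 0.0468. Leaving out each sample, r of C4T with C2T ran from -0.0638 to 0.0587 and that of C8T with Tet3 from -0.0417 to 0.332, and without embryos with C2T over 30% r of C4T with C2T was -0.146, against 0.00609 in all 26. With all edited embryos the C2T difference from E7.5 to E8.5 was -8.67 points and r of C4T with C2T was 0.292, since 3 of the 5 embryos with high C2T are numbered 3. Over all alternatives, adjusted p ran from 0.0378 to 0.635 for the C8T difference between groups, from 0.0156 to 0.891 for Tet1 minus Tet2 and from 0.03125 to 0.891 for Tet1 minus Tet3. Samples of the same number showed no common deviation (cosine of deviations over 4 measures from -0.754 to 0.425 in 6 pairs of groups, 1 above 0.1). So few values cannot exclude a pairing by number, which the main tests did not assume. With the replicate block the group differences stayed at 2.88 points for C8T, 27.2 for C4T, 6.00 for C2T and 1.29 for A and G (exact permutation adjusted p = 0.5, 0.5, 0.667 and 0.5). Depth is unknown, the bystander shares are given to 2 decimals, and a share listed at 0 may be anything under 0.5%.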
